A study of Mus musculus with 12 samples.

Results

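Uteri labelled as lacking both Cdh1 and Trp53 were compared with control uteri across all genes that the arrays detected. The rule took the 3 uteri titled as the double conditional knock-out and the 3 titled as control, which are 6 of the 12 uteri of the series, and no measured value entered the choice. Each uterus was hybridised to 1 Illumina bead array of 45281 probes. The control mice were wild type for both genes, and the double cKO mice carried the knock-out of both Cdh1 and P53, which is the other name of Trp53. All were female C57BL/6 mice aged 2 months. The labels do not state which Cre line drove the deletion, which cells it reached, which exons were removed or at which stage of the cycle the mice were killed. Whole uterine tissue was used, so each value is a mean over epithelium, stroma, muscle, vessels and blood cells.

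E-cadherin, the product of Cdh1, holds neighbouring epithelial cells together at adherens junctions and is bound inside the cell by catenins. The p53 protein is a transcription factor that stops the cell cycle or starts cell death after DNA damage and other stress. In the uterus, E-cadherin is made by the luminal and glandular epithelium, while p53 is present in most cell types. Loss of both proteins is known from aggressive endometrial carcinoma in women. The comparison addresses what the loss of both genes together does to expression in the uterus.

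Of the probes, 45.2% to 47.8% were detected on each of the 6 arrays (detection p below 0.05), and the median raw intensity lay between 108 and 115. Signals between arrays of the same group correlated with r between 0.972 and 0.990 across probes, and between arrays of the 2 groups with r between 0.957 and 0.980. The number of arrays limits the precision, and no label says whether the mice were littermates, so p-values measure only the spread between these uteri.

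Cdh1 comes first, because the labels name it as knocked out. Its brighter probe read 9.71, 9.41 and 10.08 in control and 9.67, 8.18 and 7.36 in double cKO on the log2 scale, with replicates 1, 2 and 3 in that order here and throughout. The first double cKO value lay within the control range, and the others lay below it. The difference was -1.33 ± 0.45 (log2, SE), which did not pass in the limma fit (adjusted p = 0.148). Without the library labelled double cKO 1 it was -1.96 (adjusted p = 0.00660). The dimmer Cdh1 probe differed by 0.30. Summed markers of the oviduct and of ciliated cells were highest on the library labelled double cKO 1. They came to 4214, 3304 and 1640.5 on the control arrays and 10136, 256 and 263 on the double cKO arrays. Ovgp1, the brightest of these markers on the control arrays, read 11.96, 11.56 and 10.39 in control and 13.19, 5.43 and 5.79 in double cKO. Tekt1 and Rsph1 were also highest on the library labelled double cKO 1. Foxj1 was lowest there, at 5.37, 5.17 and 5.08 in control and 4.88, 5.36 and 5.40 in double cKO. In the library labelled double cKO 1, genes of DNA replication and mitosis were low, and control 3 was the control array with the highest values of that list. The medians of that list, as deviations from each gene's mean over the 6 arrays, were -0.36, -0.29 and 0.81 on the control arrays and -1.29, 0.81 and 0.41 on the double cKO arrays. On the brighter Cdh1 probe, uteri of the series labelled as lacking Cdh1 alone read 9.74, 9.58 and 9.98, within the control range. Those labelled as lacking Trp53 alone read 9.26, 9.13 and 9.04. A value in the control range on this probe thus cannot decide whether a label holds. The label of the library labelled double cKO 1 was not tested, and every direction below includes this library unless its removal is stated. Trp53 was not analysed here.

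A gene was represented by its brightest detected probe, and 11487 genes were tested in a limma fit to all 12 arrays of the series. Calls were made where the Benjamini-Hochberg p over all 11487 genes was under 0.05. At this threshold 365 genes were called, which is 3.18% of those tested. Of these, 256 genes (2.23%) were higher in double cKO and 109 (0.949%) were lower. In all 365, the 3 values of one group lay above the 3 of the other, a separation that 26.1% of all tested genes showed. The median log2 difference was 1.61 for the genes called higher and -1.36 for those called lower, against -0.05 for all genes tested. Of all genes tested, 44.7% had differences above 0 and 17.6% had an unadjusted p below 0.05, and the counts of list members below are to be read against these shares. Among the rises, 92 genes were not detected on every control array, and 52 were detected on none, so their folds are lower bounds and are written as "at least". Such genes entered through the double cKO arrays alone or mostly, where they were high, so a list's count or median over its tested members includes genes that had to differ. With detection required on all 6 arrays, 110 of the 365 called genes were not tested and 200 genes were called. Such a bound sets the brighter mean against the lowest detected signal of each dim array, or the probe's own value where that is higher.

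**Figure D1:**
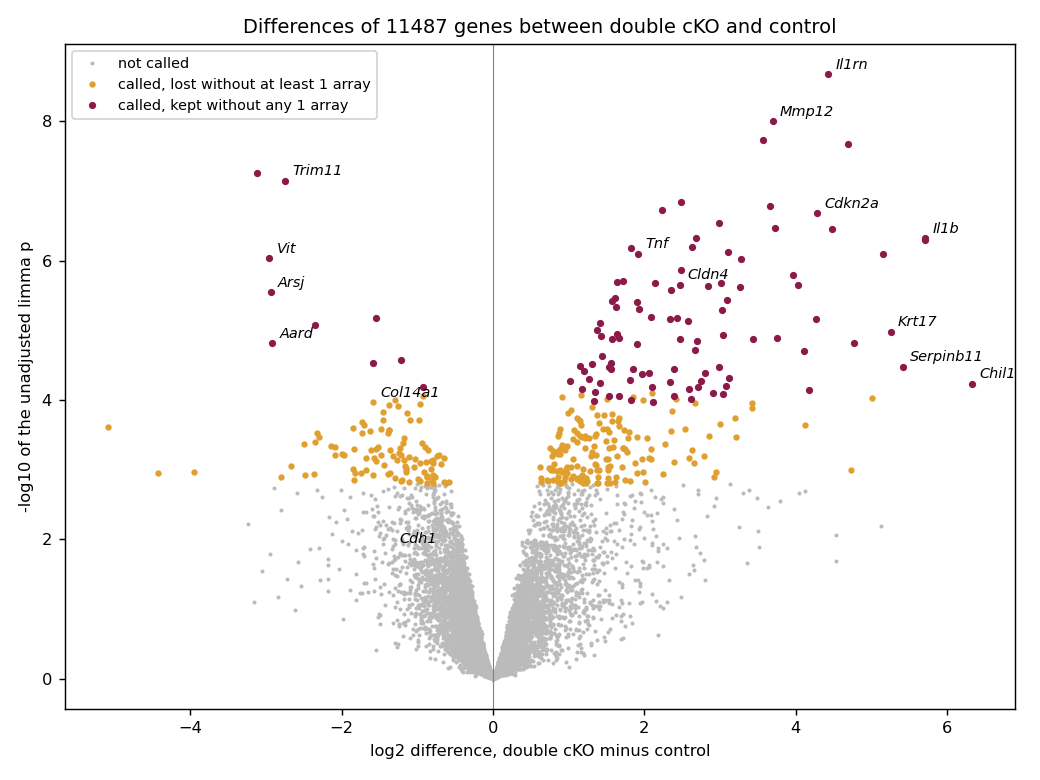
The horizontal axis gives the log2 difference of double cKO minus control and the vertical axis the negative log10 of the unadjusted limma p for 11487 genes. The 107 calls kept without any 1 of the 6 arrays are dark red, 97 of them on the right, and calls lost without at least 1 array are orange.

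Many calls were lost when 1 array was left out, which leaves 2 arrays in its group. Of the 365 calls, 14 were lost in only 1 of these 6 fits, and 85, 85 and 41 were lost in 4, 5 and 6 of them. Leaving out each of the 6 arrays in turn, 107 of the 365 calls were kept every time, 97 rises and 10 falls. The number called was 145 without control 1, 122 without control 2 and 550 without control 3. It was 196 without the library labelled double cKO 1, 246 without double cKO 2 and 142 without double cKO 3. The falls were the less stable direction, with 16, 13 and 22 called without control 1, control 2 and double cKO 3, and 220 without control 3. Without both the library labelled double cKO 1 and control 3, a setting added after the data were seen, 301 genes were called, 195 higher and 106 lower. A gene named below as risen or fallen with no further remark kept its call with any 1 array left out. For the others, the arrays without which the call was lost are named in the same paragraph. The replicates differed in ways that moved with several lists, and their part in those results was not tested.

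**Figure D2:**
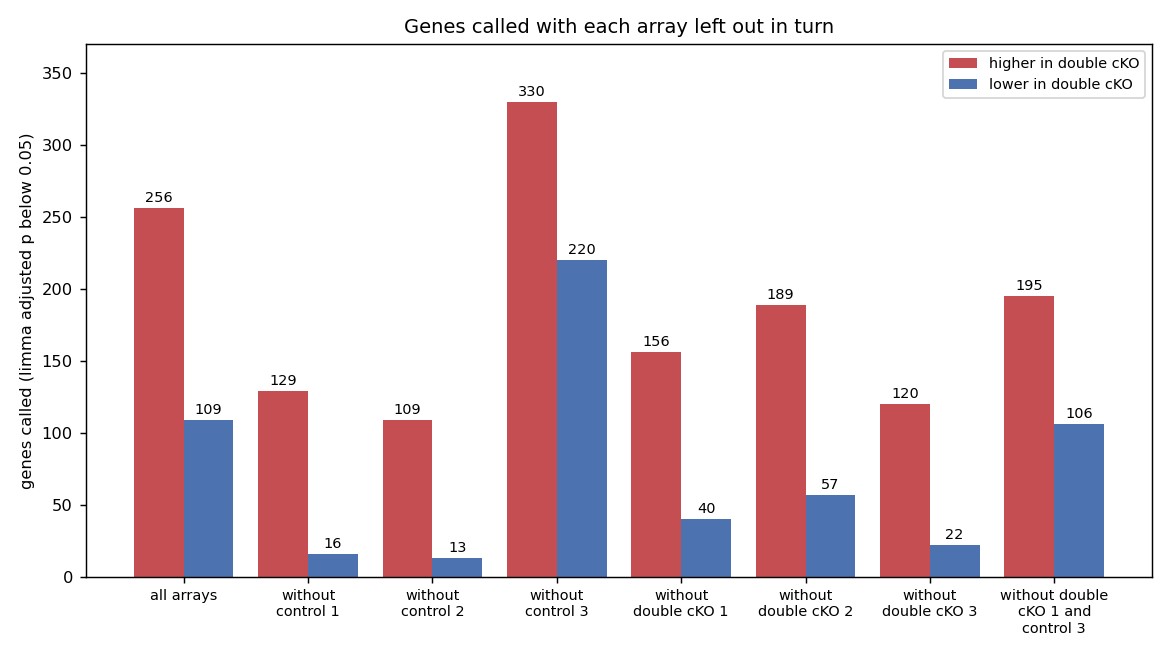
Bars give the number of genes called higher (red) and lower (blue) in double cKO, on a vertical axis that starts at 0, with all arrays and with arrays left out. Falls numbered 109 with all arrays, 13 without control 2 and 220 without control 3, and rises ranged from 109 to 330.

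Each of 4 motifs searched was in a larger share of the promoters of risen genes than of all promoters, and promoter sequences are shown for 5 risen genes that hold 1 of 2 of these motifs, AP-1 or PU.1. RefSeq promoter windows of assembly GRCm38.p6, 300 bases each that lie mostly before the gene's start, were matched by symbol for 9244 of the 11487 tested genes, 196 of the rises and 83 of the falls. The AP-1 letters TGANTCA, read on both strands, were in 16.8% of the promoters of risen genes, 3.61% of those of fallen genes and 6.65% of all. The letters GAGGAAGT, a form of the PU.1 motif of myeloid cells, were in 12.8%, 2.41% and 3.76%. C/EBP letters, TTGCNNAA, were in 15.8%, 12% and 10.3%. A consensus NF-kB motif was in 1.02%, 0% and 0.508%, which is 2 promoters of risen genes. These shares are descriptions with no test, since neighbouring family members share sequence, and a match is not a binding site. The matched letters are in capitals, AP-1 in the first 3 sequences and PU.1, in reverse, in the last 2, and each sequence is written along the strand of its gene.
Il1rn (chr2:24336610-24336909, plus strand): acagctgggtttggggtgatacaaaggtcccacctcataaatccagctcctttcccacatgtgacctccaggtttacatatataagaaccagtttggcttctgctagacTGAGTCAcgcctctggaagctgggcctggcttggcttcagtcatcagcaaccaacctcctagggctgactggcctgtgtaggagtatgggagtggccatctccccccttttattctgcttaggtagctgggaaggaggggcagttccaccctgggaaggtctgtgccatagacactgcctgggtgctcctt
Mmp13 (chr9:7272264-7272563, plus strand): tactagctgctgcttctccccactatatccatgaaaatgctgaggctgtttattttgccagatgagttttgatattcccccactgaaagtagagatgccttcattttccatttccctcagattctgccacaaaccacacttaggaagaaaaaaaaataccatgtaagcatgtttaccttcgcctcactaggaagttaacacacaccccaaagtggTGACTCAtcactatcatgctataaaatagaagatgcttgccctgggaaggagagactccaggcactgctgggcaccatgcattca
Cldn4 (chr5:134946885-134947184, minus strand): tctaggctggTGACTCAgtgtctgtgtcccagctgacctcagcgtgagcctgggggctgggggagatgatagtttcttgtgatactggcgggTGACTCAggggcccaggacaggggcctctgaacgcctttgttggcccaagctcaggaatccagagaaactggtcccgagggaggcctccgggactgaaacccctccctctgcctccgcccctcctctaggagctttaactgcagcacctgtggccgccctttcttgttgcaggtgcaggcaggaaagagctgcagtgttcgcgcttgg
S100a8 (chr3:90668821-90669120, plus strand): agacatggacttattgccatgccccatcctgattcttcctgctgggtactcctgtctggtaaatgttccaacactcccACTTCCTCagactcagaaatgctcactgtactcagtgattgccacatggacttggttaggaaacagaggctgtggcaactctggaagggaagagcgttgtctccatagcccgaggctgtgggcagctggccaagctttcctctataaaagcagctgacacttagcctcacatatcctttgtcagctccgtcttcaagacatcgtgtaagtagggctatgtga
Fcgr4 (chr1:171018676-171018975, plus strand): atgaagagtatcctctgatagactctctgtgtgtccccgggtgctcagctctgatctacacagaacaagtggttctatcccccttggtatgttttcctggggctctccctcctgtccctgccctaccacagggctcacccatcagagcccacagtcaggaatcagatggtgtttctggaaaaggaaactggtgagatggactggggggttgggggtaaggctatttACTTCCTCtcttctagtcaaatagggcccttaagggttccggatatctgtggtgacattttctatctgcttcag
Il1rn, Mmp13 and Cldn4 encode an interleukin 1 antagonist, a collagenase and a claudin, and S100a8 and Fcgr4 encode a calprotectin subunit and an Fc receptor of myeloid cells. They were picked after the matches were known, as genes whose values are described below.

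Interleukin 1 signals through a receptor shared by its alpha and beta forms, and its family includes a natural antagonist and a decoy receptor. Agonists and antagonists rose together in double cKO. Of 14 tested genes of the interleukin 1 family and inflammasome, 5 rose and 0 fell, with a median log2 difference of 0.48. Rises numbered between 4 and 6 with any 1 array left out. Requiring detection on all 6 arrays left 8 members, of which 1 rose, with a median of 0.13. The receptor antagonist gene Il1rn had the smallest adjusted p of all genes. It read 4.68, 4.85 and 4.88 in control and 9.31, 8.77 and 9.61 in double cKO, a rise of at least 20.6-fold (adjusted p = 2.42e-05). Il1b read 4.52, 4.65 and 5.12 in control and 10.93, 9.34 and 11.14 in double cKO and rose at least 46.5-fold (adjusted p = 3.60e-04). Double cKO 2 was the lowest of the double cKO arrays for both genes and still lay far above every control value. Il1a, the gene of the alpha form, read 4.35, 4.42 and 4.46 in control and 9.10, 7.69 and 7.71 in double cKO and rose at least 9.86-fold (adjusted p = 0.00256). Il33, whose product is an alarm signal kept in nuclei, was already detected on all control arrays and read 6.61, 7.29 and 6.67 in control and 8.99, 10.14 and 9.68 in double cKO, a 6.70-fold rise (adjusted p = 0.00707). The decoy receptor gene Il1r2 read 5.02, 4.71 and 4.90 in control and 8.07, 6.64 and 7.91 in double cKO (adjusted p = 0.0105). The call of Il1r2 was lost without control 2 or double cKO 3 (adjusted p between 0.0544 and 0.0555).

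**Figure D3:**
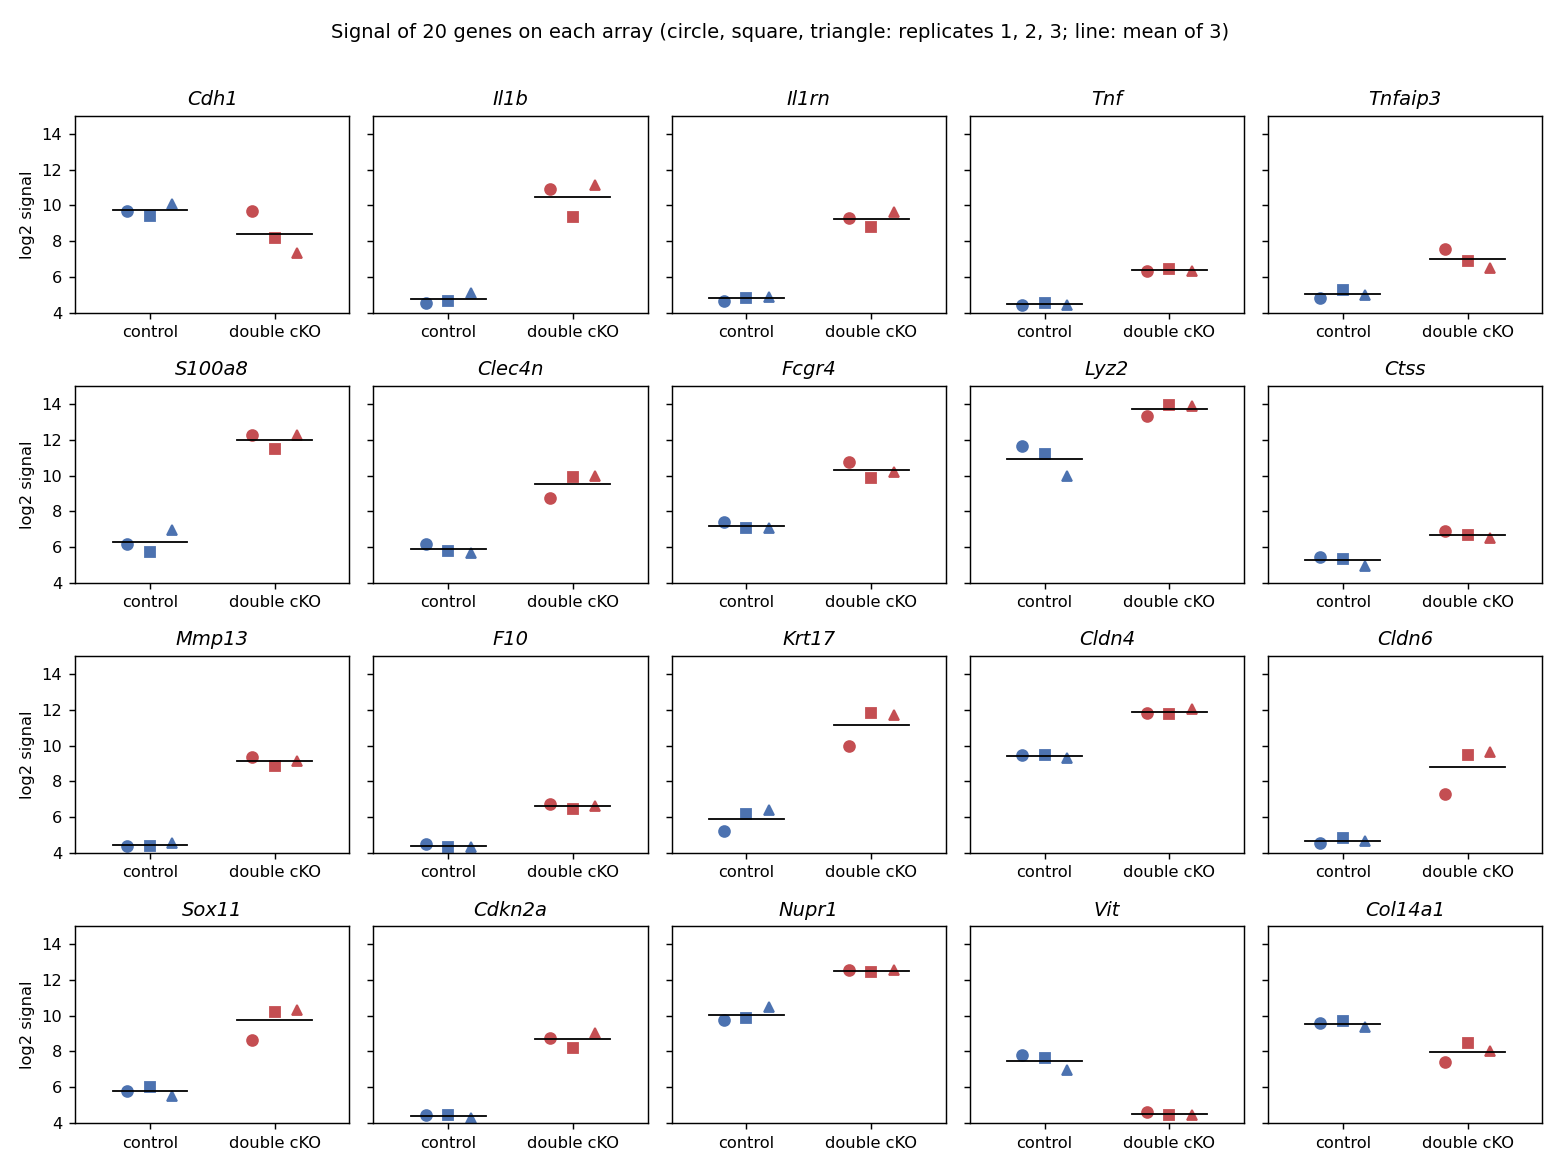
Each panel gives the log2 signal of 1 of 20 genes, with 1 point per array (circle, square and triangle for replicates 1, 2 and 3) and a line at the mean of 3. In 19 genes the groups do not overlap, and in Cdh1 the library labelled double cKO 1, at 9.67, lies within the control range.

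Tumour necrosis factor and some receptors of its superfamily also rose. Of 16 tested genes of the TNF superfamily and its receptors, 5 rose and 0 fell, with a median of 0.88. The count of rises was 2 without control 1 or double cKO 3 and 3 without control 2, control 3, the library labelled double cKO 1 or double cKO 2. Of the 12 members detected on all 6 arrays, 2 rose, with a median of 0.95. A fit of the 6 arrays only called 3 rises in this list. Tnf itself read 4.42, 4.53 and 4.44 in control and 6.35, 6.44 and 6.36 in double cKO, a rise of at least 2.86-fold (adjusted p = 4.43e-04). The double cKO values lay within 0.1 of each other, so the rise was even across the 3 uteri. Tnfrsf1b, the second TNF receptor, read 5.39, 5.50 and 5.89 in control and 7.16, 7.03 and 6.83 in double cKO and rose 2.66-fold (adjusted p = 0.00186). Tnfrsf12a, the receptor of the cytokine TWEAK, read 7.95, 8.0 and 8.82 in control and 9.74, 11.01 and 10.30 in double cKO (adjusted p = 0.0325), and Cd40, a co-stimulatory receptor, read 7.34, 7.43 and 6.68 in control and 8.35, 8.16 and 8.11 in double cKO (adjusted p = 0.0448). The call of Tnfrsf12a was lost without control 1, control 2, double cKO 2 or double cKO 3 (adjusted p between 0.0971 and 0.135). The call of Cd40 was lost without any 1 of the 6 arrays (adjusted p between 0.0765 and 0.132).

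Genes induced by NF-kB that limit or tune the response formed a further group. Of 25 tested genes of toll-like receptors and NF-kB feedback, 23 differed upwards, 8 rose by the test and 0 fell, with a median of 1.01. Rises came to 2 without control 2 or double cKO 3, 3 without control 1 or the library labelled double cKO 1 and 4 without double cKO 2, and 6 without the remaining one. Among members detected on every array, 5 of 24 rose and the median was 0.95. Tnfaip3, which encodes the deubiquitinating brake A20, read 4.85, 5.27 and 5.0 in control and 7.57, 6.92 and 6.52 in double cKO and rose 3.90-fold (adjusted p = 0.00590). Tnfaip2, a TNF-induced gene, read 7.76, 7.73 and 7.77 in control and 10.17, 10.45 and 10.53 in double cKO and rose 6.20-fold (adjusted p = 4.26e-04), with its other probes at 2.19 and 2.40. Both genes separated the groups by more than the whole spread within either. Tlr8, a sensor of single-stranded RNA, read 4.65, 4.51 and 4.48 in control and 5.36, 5.61 and 5.98 in double cKO, at least 1.72-fold up (adjusted p = 0.0203). Socs3, the feedback inhibitor of cytokine receptors that signal through STAT3, read 9.0, 9.14 and 8.64 in control and 10.35, 10.61 and 11.03 in double cKO, 3.33-fold up (adjusted p = 0.0274). Tlr2, Relb, Nfkbiz and Bcl3 were the remaining members called, at log2 differences of 1.11 ± 0.25, 0.80 ± 0.18, 1.99 ± 0.45 and 1.91 ± 0.43. The call of Tlr8 was lost without control 1, control 2, double cKO 2 or double cKO 3 (adjusted p between 0.0521 and 0.0912). The calls of Socs3 and Relb were lost without any 1 of the 6 arrays (adjusted p between 0.0507 and 0.135). The calls of Tlr2 and Nfkbiz were lost without control 1, control 2, the library labelled double cKO 1 or double cKO 3 (adjusted p between 0.115 and 0.173). The call of Bcl3 was lost without any 1 array other than control 3 (adjusted p between 0.0802 and 0.171).

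Cytokines and receptors of the interleukin 6 and colony stimulating factor families rose in part. Of 19 tested, 7 rose and 0 fell, with a median of 0.62. The tally of rises was 3 without control 1, control 2 or double cKO 3 and 4 without the library labelled double cKO 1, and 5 to 6 without the others. Fitted to the 6 arrays only, the list held 4 rises. Osm, which encodes oncostatin M, a cytokine made by neutrophils and macrophages, read 5.04, 5.22 and 5.04 in control and 8.04, 6.46 and 7.11 in double cKO and rose 4.29-fold (adjusted p = 0.00803). Csf2rb, the shared beta chain of the receptors for GM-CSF, interleukin 3 and interleukin 5, read 4.83, 4.97 and 4.56 in control and 5.84, 5.97 and 6.35 in double cKO and rose at least 2.21-fold (adjusted p = 0.00673). The oncostatin M receptor gene Osmr read 8.01, 8.29 and 8.57 in control and 10.38, 9.28 and 9.74 in double cKO (adjusted p = 0.0194). Clcf1, another cytokine of the interleukin 6 family, read 5.23, 5.55 and 5.05 in control and 6.11, 6.44 and 6.75 in double cKO (adjusted p = 0.0161). The ligand and its receptor thus both read higher on all double cKO arrays than on any control array. Il34, which encodes a ligand of the CSF1 receptor, read 5.02, 4.94 and 5.08 in control and 6.33, 6.22 and 7.22 in double cKO (adjusted p = 0.0161), and Il7r, the receptor of interleukin 7, read 5.31, 5.42 and 5.08 in control and 7.26, 6.78 and 6.91 in double cKO and rose 3.27-fold (adjusted p = 8.21e-04). The call of Osmr was lost without control 1, control 2, the library labelled double cKO 1 or double cKO 3 (adjusted p between 0.0507 and 0.0888). The call of Clcf1 was lost without control 1 or double cKO 3 (adjusted p between 0.0697 and 0.0736). The call of Il34 was lost without control 1 or control 2 (adjusted p between 0.0650 and 0.0752).

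Most tested members rose among the paired and lectin receptors of myeloid cells, which pass activating or inhibitory signals through short tyrosine motifs. Of 19 tested genes of C-type lectins and of the CD300 and LILR families, 12 rose and 0 fell, with a median of 1.53. The number of rises was between 11 and 12 with any 1 array left out. Requiring detection on all 6 arrays left 8 members, of which 3 rose, with a median of 1.03. Clec4n, the dectin 2 receptor of fungal mannans, read 6.16, 5.79 and 5.69 in control and 8.75, 9.90 and 9.95 in double cKO and rose 12.6-fold (adjusted p = 2.38e-04). Clec4d, its neighbour in the same gene cluster, read 4.86, 4.55 and 4.40 in control and 8.45, 7.89 and 8.17 in double cKO and rose at least 9.74-fold (adjusted p = 6.04e-05). Clec7a, the dectin 1 receptor of glucans, rose 8.20-fold (adjusted p = 0.00920), and Clec5a, an activating receptor, rose at least 2.13-fold (adjusted p = 0.00522). Both kinds of receptor, activating and inhibitory, were among the rises. Cd300lf, an inhibitory receptor of lipids, read 4.42, 4.45 and 4.35 in control and 6.35, 5.90 and 6.47 in double cKO and rose at least 2.59-fold (adjusted p = 4.26e-04), and its relative Cd300ld rose at least 2.90-fold. Pilra, an inhibitory receptor, read 4.59, 4.89 and 4.73 in control and 7.32, 7.81 and 8.39 in double cKO and rose at least 7.81-fold (adjusted p = 4.43e-04), while the activating partner Pilrb1 rose at least 2.12-fold (adjusted p = 0.00728). Lilr4b and Lilrb4a rose 8.16-fold and at least 2.54-fold, and since they are near-identical copies, which of them rose is uncertain. Sirpb1a, a member of another family of close copies, read 5.17, 4.78 and 4.80 in control and 7.70, 7.66 and 8.34 in double cKO and rose at least 7.56-fold (adjusted p = 3.02e-04). Cd33, which binds sialic acid, rose at least 2.76-fold and Trem3 rose at least 2.16-fold.

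Receptors for antibody and the signalling proteins behind them rose as well. Of 17 tested genes of Fc receptors and their kinase pathway, 11 rose and 0 fell, with a median of 1.05. Rises numbered 4 without double cKO 3, 5 without control 2 or the library labelled double cKO 1 and 7 without double cKO 2, and 8 to 9 without the others. Fcgr4, an activating receptor for IgG, read 7.38, 7.08 and 7.07 in control and 10.78, 9.88 and 10.22 in double cKO and rose 8.68-fold (adjusted p = 0.00666). Fcgr2b, the inhibitory receptor, read 8.07, 7.69 and 7.14 in control and 9.75, 9.74 and 9.81 in double cKO and rose 4.39-fold (adjusted p = 8.21e-04). Its other probes differed by 0.32 and 2.01. Fcer1g, the signalling chain shared by activating Fc receptors, read 9.74, 9.36 and 8.68 in control and 11.70, 11.59 and 11.65 in double cKO and rose 5.23-fold (adjusted p = 0.00956). Control 3 was the lowest control array for all of these receptor genes, and no double cKO value came near the control range. Plek, which encodes pleckstrin, a substrate of protein kinase C in platelets and leukocytes, read 4.55, 4.51 and 4.34 in control and 6.31, 5.71 and 6.20 in double cKO and rose at least 2.31-fold (adjusted p = 0.00108). The adaptor genes Samsn1 and Scimp rose 4.27-fold and 4.33-fold (adjusted p = 0.00167 and 0.0105). P2ry6, a receptor for extracellular UDP, rose 2.51-fold from a bright control level, 9.09, 8.80 and 8.26 in control and 10.03, 10.11 and 9.99 in double cKO (adjusted p = 0.0102).

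The phagocyte oxidase makes superoxide from NADPH. Of 9 tested genes of this enzyme and of nitric oxide synthesis, all 9 had differences above 0 and 3 rose by the test, with a median of 1.29. The count of rises was 0 without control 2 or the library labelled double cKO 1 and 1 without control 1, double cKO 2 or double cKO 3, and 2 without the remaining one. A fit of the 6 arrays only called 1 rise in this list. Cyba, the membrane subunit p22phox, read 11.72, 11.66 and 11.99 in control and 12.71, 12.36 and 12.58 in double cKO (adjusted p = 0.0274). Ncf4, the cytosolic subunit p40phox, read 7.40, 7.92 and 6.97 in control and 9.29, 9.12 and 8.44 in double cKO (adjusted p = 0.0382). The GTPase gene Rac2 read 7.37, 6.93 and 6.32 in control and 8.21, 8.14 and 7.97 in double cKO (adjusted p = 0.0489). The groups did not overlap in any of the 3 genes, yet each of these calls was lost when any of several arrays was left out. The call of Cyba was lost without control 1, control 2, the library labelled double cKO 1 or double cKO 3 (adjusted p between 0.0835 and 0.132). The call of Ncf4 was lost without any 1 array other than double cKO 3 (adjusted p between 0.0518 and 0.129). The call of Rac2 was lost without any 1 array other than control 1 (adjusted p between 0.0872 and 0.147).

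Neutrophil genes were among the steepest rises. S100a8 read 6.19, 5.72 and 6.96 in control and 12.24, 11.49 and 12.25 in double cKO and rose 52-fold (adjusted p = 3.60e-04), and its partner in calprotectin, S100a9, read 5.30, 4.65 and 5.73 in control and 10.81, 9.94 and 10.40 in double cKO and rose at least 33.9-fold (adjusted p = 4.43e-04). Of 14 tested granule and calprotectin genes, 5 rose and 0 fell, with a median of 1.80. Rises came to 3 without control 1 or the library labelled double cKO 1, and 4 to 5 without the others. Of the 7 members detected on all 6 arrays, 1 rose, with a median of 1.94. Chil1, a chitinase-like protein of neutrophil granules that epithelia also secrete, read 4.49, 4.55 and 5.05 in control and 12.25, 10.02 and 10.80 in double cKO and rose at least 69.3-fold (adjusted p = 0.00751). Of 13 tested receptors of neutrophils and myeloid chemotaxis, 4 rose, with a median of 0.81. The tally of rises was between 3 and 4 with any 1 array left out. Among members detected on every array, 2 of 7 rose and the median was 0.77. Fpr2, a receptor for formyl peptides, read 5.66, 4.88 and 5.59 in control and 8.57, 8.28 and 9.06 in double cKO and rose 9.62-fold (adjusted p = 8.37e-04). Cxcr2, the main chemokine receptor of neutrophils, read 4.54, 4.34 and 4.54 in control and 7.12, 6.05 and 7.54 in double cKO and rose at least 4.11-fold (adjusted p = 0.00167). Its relative Cxcr1 rose at least 1.48-fold from a level detected on no control array. Csf3r, the receptor of the growth factor G-CSF, read 5.64, 5.61 and 5.38 in control and 7.98, 7.59 and 8.07 in double cKO and rose 5.05-fold (adjusted p = 0.00167). For Cxcr2, double cKO 2 was the lowest of the 3, as it was for S100a8, S100a9 and Chil1. Cd177, a surface protein of neutrophils, rose at least 2.84-fold on its brightest probe and differed by 0.19 on another. Ffar2, a receptor of short-chain fatty acids, and Mcemp1 rose at least 5.41-fold and 2.30-fold. Trem1, an amplifying receptor, read 4.31, 4.53 and 4.42 in control and 5.49, 5.58 and 6.54 in double cKO (adjusted p = 0.0194), and Chil3, a chitinase-like protein, read 4.27, 4.40 and 4.57 in control and 6.22, 6.47 and 5.55 in double cKO (adjusted p = 0.0153). The call of Trem1 was lost without control 1 or control 2 (adjusted p between 0.0679 and 0.0844). The call of Chil3 was lost without control 1, control 2, the library labelled double cKO 1 or double cKO 2 (adjusted p between 0.0512 and 0.0698).

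Chemokine ligands moved unevenly. Of 26 tested, 7 rose and 1 fell, with a median of 1.09. The number of rises was 4 without control 1, control 2 or the library labelled double cKO 1, and 5 to 6 without the others. Requiring detection on all 6 arrays left 19 members, of which 3 rose, with a median of 0.39. Ccl9 read 8.35, 8.39 and 7.87 in control and 11.04, 11.31 and 11.29 in double cKO and rose 8.04-fold (adjusted p = 8.21e-04), and its neighbour Ccl6 read 5.98, 5.88 and 5.55 in control and 8.69, 8.67 and 8.79 in double cKO and rose 7.51-fold (adjusted p = 0.00915). Both attract monocytes and other myeloid cells. Ccl17, a ligand of the receptor CCR4 on T cells, read 4.44, 4.50 and 4.43 in control and 6.55, 7.97 and 8.11 in double cKO and rose at least 6.40-fold (adjusted p = 0.00113). Ppbp, the precursor of a platelet chemokine that binds CXCR2, read 4.63, 4.59 and 4.42 in control and 8.55, 8.71 and 10.67 in double cKO and rose at least 21.8-fold (adjusted p = 0.00279), with double cKO 3 the highest. The neutrophil attractant Cxcl1 was not detected on any control array and read 4.55, 4.48 and 4.74 in control and 8.35, 7.40 and 7.66 in double cKO (adjusted p = 0.0220). Ccl3 and Cxcl16, which attract monocytes and T cells, differed by 2.65 ± 0.58 and 1.40 ± 0.31. Cxcl12, the stromal ligand of CXCR4, was the member that fell, at 12.33, 12.06 and 10.29 in control and 9.34, 9.27 and 9.11 in double cKO, a difference of -2.32 ± 0.44 (adjusted p = 0.0203). The call of Cxcl1 was lost without control 1, control 2, the library labelled double cKO 1 or double cKO 3 (adjusted p between 0.0736 and 0.0924). The call of Ccl3 was lost without any 1 array other than double cKO 3 (adjusted p between 0.0692 and 0.103). The call of Cxcl16 was lost without any 1 of the 6 arrays (adjusted p between 0.0618 and 0.151). The call of Cxcl12 was lost without any 1 array other than control 3 (adjusted p between 0.0543 and 0.0978).

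Most detected markers of macrophages and neutrophils were higher on the double cKO arrays. The summed linear signal of the macrophage markers was 5471, 4344 and 3006 on the control arrays and 20382, 20379.5 and 21596 on the double cKO arrays, and that of the neutrophil markers was 661, 1006 and 634 on the control arrays and 8209, 4386 and 6921 on the double cKO arrays. Lyz2 and Cd14 were the brightest of the macrophage markers on each array, so the macrophage sum mostly follows them. Cd14 read 10.25, 10.32 and 10.55 in control and 13.03, 11.29 and 12.31 in double cKO and did not pass (limma adjusted p = 0.0939). Camp and Ngp, granule genes of immature neutrophils, were not detected on any of the 6 arrays. Retnlg, a resistin-like gene of neutrophils, read 8.75, 9.67 and 8.45 in control and 10.12, 7.82 and 7.64 in double cKO and did not pass (adjusted p = 0.912), lower on 2 of the 3 double cKO arrays than on any control array. In whole tissue, more cells of a type and more RNA per cell cannot be told apart. Of 24 tested macrophage genes, 8 rose and 0 fell, with a median of 1.02. Rises numbered 1 without control 2 or the library labelled double cKO 1, 2 without double cKO 2 or double cKO 3 and 5 without control 3, and 8 without the remaining one. Fitted to the 6 arrays only, the list held 3 rises. Lyz2, lysozyme of macrophages and neutrophils, read 11.63, 11.19 and 9.98 in control and 13.34, 13.98 and 13.88 in double cKO and rose 6.96-fold (adjusted p = 0.00586), and its near-identical copy Lyz1 read 13.50, 13.28 and 12.09 in control and 14.53, 14.78 and 14.69 in double cKO (adjusted p = 0.0274), so the share of each is uncertain. Mpeg1, a pore-forming protein of phagocytes, read 8.29, 7.64 and 7.18 in control and 9.63, 9.68 and 9.18 in double cKO (adjusted p = 0.0199), and the leukocyte tetraspanin gene Cd53 read 6.18, 5.50 and 5.08 in control and 7.49, 6.88 and 7.01 in double cKO (adjusted p = 0.0274). The growth factor receptor Csf1r and the macrophage surface protein Adgre1, which define the type most closely, differed by 1.16 ± 0.29 and 1.08 ± 0.29 and did not pass (adjusted p = 0.0591 and 0.0759). Spi1, which encodes the factor PU.1, differed by 0.96 ± 0.21 (adjusted p = 0.0396). The call of Lyz1 was lost without control 2, the library labelled double cKO 1, double cKO 2 or double cKO 3 (adjusted p between 0.0660 and 0.0972). The call of Mpeg1 was lost without control 2, the library labelled double cKO 1 or double cKO 2 (adjusted p between 0.0624 and 0.0876). The call of Cd53 was lost without control 2, control 3, the library labelled double cKO 1 or double cKO 3 (adjusted p between 0.0518 and 0.115). The call of Spi1 was lost without any 1 of the 6 arrays (adjusted p between 0.0700 and 0.126). Among genes linked to alternative activation, 4 of 18 rose. The count of rises was 1 without control 1 or the library labelled double cKO 1 and 2 without control 2, double cKO 2 or double cKO 3, and 4 without the remaining one. Of the 14 members detected on all 6 arrays, 2 rose, with a median of 0.28. Ear3, a secreted ribonuclease from a family of close copies, rose 8.42-fold.

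**Figure D4:**
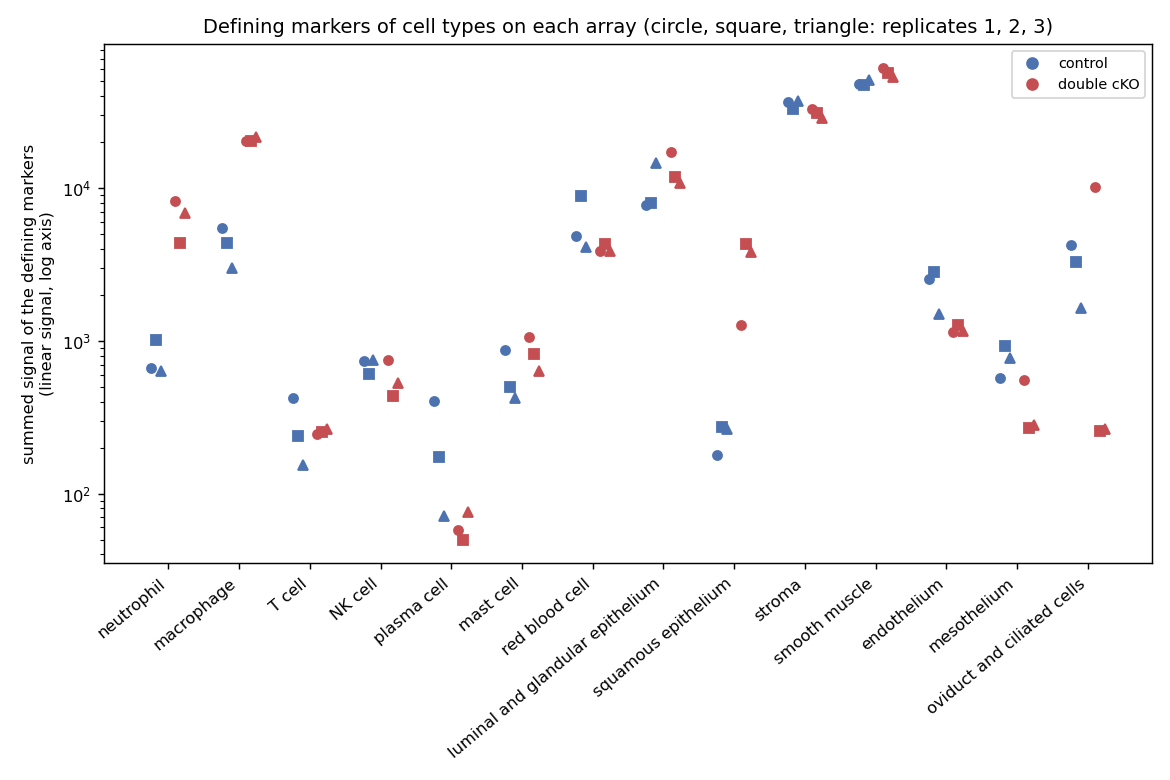
The vertical axis, on a log scale, gives the summed linear signal of the defining markers of 14 cell types, and each point is 1 array. The 3 double cKO arrays lie above the control arrays for neutrophils (4386 to 8209 against 634 to 1006), for macrophages (20379.5 to 21596 against 3006 to 5471), for squamous epithelium (1265 to 4310.3 against 179 to 272) and for smooth muscle (53270.1 to 61616 against 47570.1 to 51465). They lie below them for endothelium (1136 to 1272 against 1494 to 2828), stroma (28979.7 to 33104 against 33197 to 37443) and mesothelium (270.5 to 556 against 571 to 932), and the groups overlap for the other types. Each sum mostly follows its brightest markers. Of the markers, 1 of squamous epithelium was called higher, 1 of endothelium was called lower, and 0 of smooth muscle, stroma or mesothelium were called. Kdr (endothelium), Pdgfra and Col1a1 (stroma) and Msln (mesothelium) differed by 0.22, 0.06, 0.01 and 0.01. The other tested markers of these types were lower.

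Complement and coagulation genes were higher in part. Of 16 tested complement genes, 5 rose and 0 fell, with a median of 0.68. Rises came to 0 without control 2, the library labelled double cKO 1 or double cKO 3, 1 without double cKO 2 and 2 without control 1 or control 3. Among members detected on every array, 2 of 14 rose and the median was 0.78. A fit of the 6 arrays only called 2 rises in this list. C1qc, a chain of the first complement component, read 10.51, 10.07 and 9.32 in control and 11.25, 11.36 and 11.16 in double cKO (adjusted p = 0.0310). C1qa, another chain, read 9.42, 9.0 and 8.24 in control and 9.92, 10.17 and 9.95 in double cKO (adjusted p = 0.0460). Cfb, the protease of the alternative pathway, read 5.97, 5.52 and 7.15 in control and 10.36, 8.38 and 8.75 in double cKO, with the library labelled double cKO 1 the highest (adjusted p = 0.0412). Cfp, properdin, which stabilises that pathway, read 10.14, 9.94 and 9.81 in control and 11.17, 11.38 and 11.43 in double cKO (adjusted p = 0.0367). The call of C1qc was lost without control 2, the library labelled double cKO 1, double cKO 2 or double cKO 3 (adjusted p between 0.0837 and 0.0980). The call of C1qa was lost without any 1 array other than control 1 (adjusted p between 0.0529 and 0.132). The call of Cfb was lost without any 1 array other than control 3 (adjusted p between 0.0512 and 0.171). The call of Cfp was lost without any 1 of the 6 arrays (adjusted p between 0.0670 and 0.132). Of 14 tested coagulation and platelet genes, 4 rose and 0 fell, with a median of 0.26. The tally of rises was between 3 and 4 with any 1 array left out. Requiring detection on all 6 arrays left 10 members, of which 1 rose, with a median of -0.21. F7, coagulation factor VII, read 4.47, 4.60 and 4.55 in control and 6.59, 7.27 and 7.20 in double cKO and rose at least 4.45-fold (adjusted p = 2.37e-04), and F10, factor X, read 4.49, 4.31 and 4.34 in control and 6.74, 6.44 and 6.64 in double cKO and rose at least 3.35-fold (adjusted p = 2.40e-04). Both lie next to each other on chromosome 8 and were detected on no control array and on every double cKO array. Plaur, the receptor of urokinase, read 5.92, 5.66 and 5.75 in control and 7.59, 7.34 and 7.59 in double cKO (adjusted p = 0.0195). The call of Plaur was lost without control 1, control 2, the library labelled double cKO 1 or double cKO 3 (adjusted p between 0.0615 and 0.0893).

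Enzymes that cut the matrix and enzymes of lysosomes rose. Of 23 tested secreted proteases and inhibitors, 5 rose and 0 fell, with a median of 0.96. The number of rises was 3 without control 1, control 2, the library labelled double cKO 1 or double cKO 3, and 4 to 7 without the others. Of the 19 members detected on all 6 arrays, 1 rose, with a median of 0.75. Mmp12, the elastase of macrophages, read 4.45, 4.54 and 4.43 in control and 8.52, 7.96 and 8.02 in double cKO and rose at least 9.83-fold (adjusted p = 5.76e-05). Mmp13, a collagenase, read 4.37, 4.40 and 4.56 in control and 9.38, 8.86 and 9.15 in double cKO and rose at least 19.2-fold on its brightest probe (adjusted p = 6.04e-05). Its other detected probe differed by -0.02, so the 2 probes disagree. Adam8, a membrane protease of leukocytes, read 4.88, 5.21 and 4.80 in control and 7.05, 6.59 and 6.95 in double cKO and rose at least 3.63-fold (adjusted p = 0.00283), with its other probe at 1.77. Mmp10, stromelysin 2, read 5.31, 5.44 and 6.05 in control and 9.14, 7.84 and 8.59 in double cKO (adjusted p = 0.0453). In the lysosome, Lgmn, which encodes legumain, an asparaginyl protease, read 10.87, 10.80 and 10.61 in control and 12.27, 12.20 and 12.67 in double cKO and rose 3.08-fold (adjusted p = 0.00134). Ctss, cathepsin S, which trims the invariant chain of class II molecules, read 5.46, 5.33 and 4.95 in control and 6.89, 6.67 and 6.49 in double cKO and rose 2.71-fold (adjusted p = 0.00400). The cysteine protease gene Ctsl read 5.52, 5.44 and 5.37 in control and 9.46, 7.94 and 7.92 in double cKO (adjusted p = 0.0175), and the sialidase gene Neu1 read 10.24, 10.42 and 10.70 in control and 11.73, 10.99 and 11.72 in double cKO (adjusted p = 0.0384). Slc15a3, which carries peptides out of lysosomes, read 6.78, 6.67 and 6.17 in control and 9.23, 9.09 and 9.33 in double cKO and rose 6.39-fold (adjusted p = 3.60e-04). Of the 19 tested cathepsins, cystatins and other lysosomal genes, 4 rose and 0 fell. Rises numbered 2 without control 2 or the library labelled double cKO 1, and 3 to 5 without the others. The call of Mmp10 was lost without any 1 array other than control 3 (adjusted p between 0.0624 and 0.162). The call of Ctsl was lost without control 1, control 2 or the library labelled double cKO 1 (adjusted p between 0.0549 and 0.0725). The call of Neu1 was lost without control 1, control 2, the library labelled double cKO 1 or double cKO 3 (adjusted p between 0.121 and 0.156).

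Antigen presentation and interferon genes leaned upwards with few calls. Of 22 tested genes of antigen presentation, 19 had differences above 0, 4 rose and 0 fell, with a median of 0.80. The count of rises was 1 without control 1 or the library labelled double cKO 1 and 2 without control 2 or double cKO 3, and 3 without the others. Among members detected on every array, 1 of 19 rose and the median was 0.76. H2-M2, a non-classical class I gene, read 5.04, 4.50 and 4.54 in control and 8.47, 9.83 and 9.20 in double cKO and rose at least 18.7-fold (adjusted p = 3.15e-04). Cd274, the inhibitory ligand PD-L1, read 6.38, 6.80 and 5.66 in control and 9.32, 8.11 and 8.22 in double cKO (adjusted p = 0.0255), and the co-stimulatory ligand gene Cd80 read 4.67, 4.84 and 4.66 in control and 5.77, 5.35 and 5.61 in double cKO (adjusted p = 0.0285). The call of Cd274 was lost without control 1, control 3, the library labelled double cKO 1 or double cKO 3 (adjusted p between 0.0503 and 0.0858). The call of Cd80 was lost without any 1 array other than double cKO 2 (adjusted p between 0.0518 and 0.113). Among 25 tested interferon response genes, all 25 had differences above 0, with a median of 1.05, 18 had an unadjusted p below 0.05 and 2 were called. Without the library labelled double cKO 1, 6 had an unadjusted limma p below 0.05 and the median was 0.68. Without double cKO 3 these were 22 and 1.45. Rises came to 0 without control 1, control 2, the library labelled double cKO 1 or double cKO 2 and 1 without control 3 or double cKO 3. Requiring detection on all 6 arrays left 23 members, of which 1 rose, with a median of 1.10. Ifi47, an immunity GTPase, read 7.04, 6.53 and 7.17 in control and 9.03, 8.25 and 7.95 in double cKO (adjusted p = 0.0325), and Rtp4 read 5.13, 5.0 and 5.40 in control and 7.23, 6.25 and 6.55 in double cKO (adjusted p = 0.0496). The call of Ifi47 was lost without control 1, control 2, the library labelled double cKO 1 or double cKO 2 (adjusted p between 0.0662 and 0.142). The call of Rtp4 was lost without any 1 of the 6 arrays (adjusted p between 0.0553 and 0.187). The brightest member that missed the threshold was Irf1, a transcription factor induced by interferon gamma, at 0.78 ± 0.24 (adjusted p = 0.108). The library labelled double cKO 1 was the highest array for the interferon list. Array medians of the list were -0.54, -0.27 and -0.61 on the control arrays and 1.31, 0.23 and 0.10 on the double cKO arrays.

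Few lymphocyte genes were called. Of 14 tested genes of T cells and NK cells, 1 rose and 1 fell, with a median of -0.11. Without control 3, 2 fell, and without any other array 0 fell. Cd6, a receptor of T cells, read 4.92, 4.73 and 4.36 in control and 5.94, 6.06 and 6.14 in double cKO and rose at least 2.21-fold (adjusted p = 0.00223). The T cell receptor chain markers summed to 419.9, 238 and 154 on the control arrays and 247, 253 and 267 on the double cKO arrays, so the groups overlapped. Nkg7, a granule protein of NK and cytotoxic T cells, read 8.56, 8.10 and 7.75 in control and 6.89, 6.29 and 6.49 in double cKO (adjusted p = 0.0444), and the NK receptor gene Klre1 read 6.94, 7.24 and 6.60 in control and 5.64, 4.98 and 5.58 in double cKO (adjusted p = 0.0272), both lower in double cKO. The calls of Nkg7 and Klre1 were lost without any 1 array other than control 3 (adjusted p between 0.0524 and 0.174). None of 9 tested genes of B and plasma cells and none of 10 tested mast cell genes was called by limma, with 3 and 1 at an unadjusted p below 0.05. Plasma cell markers summed to 71.6 to 404 in control and 49.9 to 75.6 in double cKO, with Jchain undetected, and mast cell markers to 423 to 866 in control and 636 to 1064 in double cKO.

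**Figure D5:**
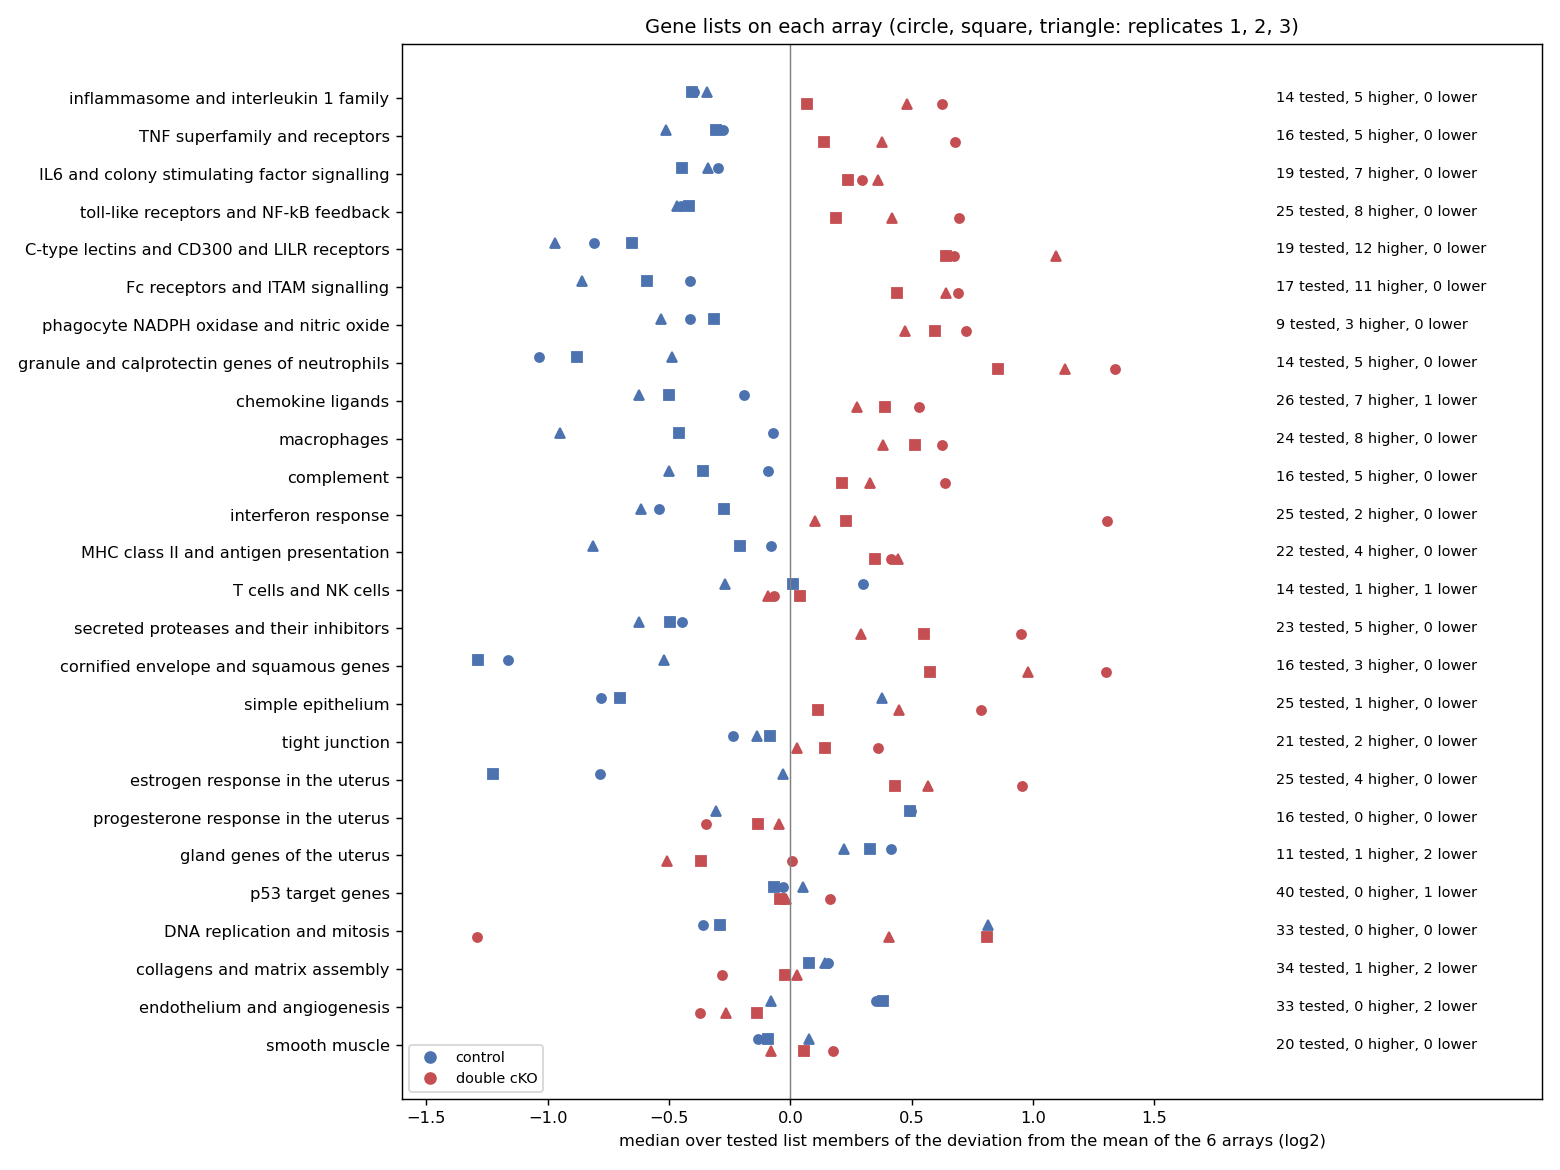
Each row is a gene list, and each point is the median over its tested members, on 1 array, of the log2 deviation from the mean of the 6 arrays. Double cKO arrays lie to the right of all control arrays for every myeloid list shown, while for DNA replication the groups overlap, with the library labelled double cKO 1 at -1.29 and control 3 at 0.81.

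Genes of simple epithelium lay mostly above 0, with few calls. Of 25 tested, 22 had differences above 0, 11 had an unadjusted p below 0.05, 1 rose and 0 fell, with a median of 0.71. The tally of rises was 8 without control 3, and 1 without the others. The bright keratin gene Krt8 read 12.14, 12.23 and 13.10 in control and 13.29, 12.84 and 12.68 in double cKO (adjusted p = 0.457), and the mucin gene Muc1 read 9.15, 9.89 and 12.20 in control and 12.90, 12.03 and 12.84 in double cKO (adjusted p = 0.156). Neither passed, and control 3 lay within the double cKO range in both. Krt17, a keratin of basal and injured epithelium, was the keratin called. It read 5.21, 6.16 and 6.37 in control and 9.98, 11.80 and 11.72 in double cKO and rose 38.1-fold (adjusted p = 0.00232), with the library labelled double cKO 1 the lowest of the 3. The basal keratin gene Krt14 read 4.62, 5.55 and 5.27 in control and 6.42, 8.18 and 7.37 in double cKO and did not pass (adjusted p = 0.573), and Krt5 and Krt6a were not detected on any of the 6 arrays. Summed squamous markers were 179, 272 and 264 on the control arrays and 1265, 4310.3 and 3843 on the double cKO arrays. Krt17 was the brightest of these markers on every array and the 1 of 7 that was called. Trp63 read 4.97, 6.10 and 5.11 in control and 5.29, 5.47 and 5.50 in double cKO (limma adjusted p = 0.990). Sprr1b was not detected on any of the 6 arrays. Of 16 tested genes of the cornified envelope, 3 rose and 0 fell, with a median of 1.93. The number of rises was 0 without control 2 and 1 without control 1, and 2 to 4 without the others. Of the 9 members detected on all 6 arrays, 1 rose, with a median of 1.09. Sprr2g, a small proline-rich protein from a family of close copies, read 8.88, 8.77 and 9.34 in control and 11.89, 11.29 and 11.06 in double cKO (adjusted p = 0.010). Sprr2b of the same family read 4.31, 4.41 and 4.40 in control and 9.12, 7.19 and 7.05 in double cKO (adjusted p = 0.0119). Tgm1, the transglutaminase that joins such proteins, read 5.07, 4.71 and 4.93 in control and 5.90, 6.19 and 6.67 in double cKO (adjusted p = 0.0217), and Ivl, which encodes involucrin, missed the threshold at 4.69, 4.48 and 5.30 in control and 5.87, 8.45 and 7.66 in double cKO (adjusted p = 0.0512). The call of Sprr2g was lost without control 2 (adjusted p = 0.0541). The call of Sprr2b was lost without control 1 or control 2 (adjusted p between 0.0524 and 0.0525). The call of Tgm1 was lost without control 1, control 2, double cKO 2 or double cKO 3 (adjusted p between 0.0530 and 0.104). Serpinb11, a clade B serpin, read 4.68, 5.31 and 5.35 in control and 9.77, 10.80 and 11.001 in double cKO and rose at least 41.3-fold (adjusted p = 0.00516).

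Among the tested junction genes, the 2 rises were claudins. Of 21 tested tight junction genes, 2 rose and 0 fell, with a median of 0.29. Rises numbered 5 without control 3, and 2 without the others. Among members detected on every array, 1 of 18 rose and the median was 0.27. Cldn4, a claudin of tight epithelia, read 9.45, 9.50 and 9.30 in control and 11.81, 11.78 and 12.06 in double cKO and rose 5.53-fold (adjusted p = 8.21e-04). The values within each group lay within 0.3 of each other. Cldn6, a claudin of embryonic epithelia and of some carcinomas, read 4.56, 4.82 and 4.67 in control and 7.30, 9.45 and 9.62 in double cKO and rose at least 15.2-fold (adjusted p = 0.00343), with the library labelled double cKO 1 the lowest. Of 18 tested genes of adherens junctions and desmosomes, 0 rose and 1 fell, and that fall was the endothelial cadherin Cdh5, described with the vessels. Without control 3, 2 rose and 1 fell, without the library labelled double cKO 1, Cdh1 itself was the 1 fall and Cdh5 was not called, and without any other array none was called. Among integrins and genes of epithelial to mesenchymal transition, 1 of 30 rose and 1 fell. Without control 3, 4 of these rose and 2 fell, without the library labelled double cKO 1, 2 rose and 0 fell, and without any other array 1 rose and 0 fell. Itga3, which pairs in a laminin receptor, read 8.30, 8.66 and 9.05 in control and 9.93, 10.48 and 10.30 in double cKO and rose 2.96-fold (adjusted p = 0.00526). Zeb2, a repressor of epithelial genes, read 10.58, 10.79 and 9.997 in control and 9.40, 9.41 and 8.90 in double cKO and was lower (adjusted p = 0.0489). The call of Zeb2 was lost without any 1 array other than control 3 (adjusted p between 0.0846 and 0.200).

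Transport and secretory genes of epithelia rose in part. Of 25 tested genes of water, ion and nutrient transport, 4 rose and 0 fell, with a median of 0.62. The count of rises was 1 without control 1, control 2 or double cKO 3 and 2 without the library labelled double cKO 1, and 3 to 4 without the others. Requiring detection on all 6 arrays left 19 members, of which 2 rose, with a median of 0.56. Scnn1g, a subunit of the epithelial sodium channel, read 4.37, 4.64 and 4.45 in control and 6.93, 6.42 and 7.15 in double cKO and rose at least 3.92-fold (adjusted p = 8.77e-04). Slc26a4, the anion exchanger pendrin, read 4.99, 5.17 and 5.27 in control and 10.90, 7.88 and 9.02 in double cKO (adjusted p = 0.0176), Slc34a2, a phosphate carrier, read 4.57, 4.49 and 4.77 in control and 7.81, 6.12 and 6.93 in double cKO (adjusted p = 0.0199), and the water channel gene Aqp5 read 9.32, 7.77 and 9.64 in control and 11.47, 11.05 and 11.38 in double cKO (adjusted p = 0.0347). In Slc26a4, Slc34a2 and Aqp5 the library labelled double cKO 1 was the highest of the 3. The call of Slc26a4 was lost without control 1, control 2 or double cKO 3 (adjusted p between 0.0576 and 0.0720). The call of Slc34a2 was lost without control 1, control 2, the library labelled double cKO 1 or double cKO 3 (adjusted p between 0.0593 and 0.0893). The call of Aqp5 was lost without any 1 array other than control 3 (adjusted p between 0.0679 and 0.121). A further pair of channel genes outside this list rose, the magnesium channel Trpm6 by 5.24-fold and the potassium channel Kcnj15 by at least 3.73-fold (adjusted p = 0.00526 and 0.00586). Olfm4, a secreted glycoprotein known from intestinal crypts and neutrophil granules, read 4.36, 4.36 and 4.53 in control and 9.07, 7.81 and 8.45 in double cKO and rose at least 11.9-fold (adjusted p = 8.21e-04). Steap1 and Steap2, which encode membrane metalloreductases, rose at least 7.78-fold and 3.59-fold (adjusted p = 0.00516 and 0.00526). Of 16 tested genes of iron handling, 3 rose and 1 fell, with a median of 0.99. Rises came to 1 without control 2, the library labelled double cKO 1 or double cKO 3 and 5 without control 3, and 2 without the others. Fitted to the 6 arrays only, the list held 5 rises. Trf, transferrin, read 9.28, 9.10 and 8.35 in control and 10.76, 10.83 and 10.49 in double cKO (adjusted p = 0.0221), Cp, the ferroxidase ceruloplasmin, read 8.69, 8.21 and 9.05 in control and 11.95, 10.49 and 11.27 in double cKO (adjusted p = 0.0321), and Steap3 was the fall. The call of Trf was lost without control 2, the library labelled double cKO 1, double cKO 2 or double cKO 3 (adjusted p between 0.0641 and 0.0713). The call of Cp was lost without control 1, control 2, the library labelled double cKO 1 or double cKO 3 (adjusted p between 0.106 and 0.137). The call of Steap3 was lost without any 1 array other than control 3, and its values are given with the p53 targets.

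Some transcription factor genes rose. Those described here were picked after their values were seen, and other such factors, Zeb2, Ebf1 and Osr1, were called lower and are described elsewhere. Sox11, a factor of embryonic progenitors, read 5.81, 5.98 and 5.51 in control and 8.64, 10.22 and 10.34 in double cKO and rose 15.6-fold (adjusted p = 7.49e-04), with its other probe at 2.38. Tfap2a, which encodes AP-2 alpha, a factor of the surface ectoderm and neural crest, read 4.51, 4.42 and 4.44 in control and 7.28, 8.08 and 8.33 in double cKO and rose at least 8.16-fold (adjusted p = 0.00256), with its other probe at 1.75. The library labelled double cKO 1 was the lowest double cKO array for both, as for Krt17 and Cldn6. Foxq1, a forkhead factor of epithelia, read 5.88, 6.47 and 7.59 in control and 9.53, 9.02 and 9.52 in double cKO and rose 6.53-fold (adjusted p = 0.00805). Runx1, a factor of blood cells that epithelia also express, read 5.67, 5.04 and 6.75 in control and 7.93, 8.22 and 8.33 in double cKO and rose 5.05-fold (adjusted p = 0.00713), with control 3 the highest control for both. Eya1, a transcriptional co-activator, rose at least 2.06-fold from a level detected on no control array (adjusted p = 0.00886). Igf2bp3, an RNA-binding protein of the embryo, rose at least 2.75-fold on its brightest probe (adjusted p = 0.0101) and differed by -0.01 on the other. Of 21 tested patterning factors of the Mullerian duct and mesenchyme, none was called by limma, 4 had an unadjusted p below 0.05, and the median was -0.27.

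The uterus responds to estrogen and progesterone, and both lists of hormone response were read with the receptors. Of 25 tested genes of estrogen response, 4 rose and 0 fell, with a median of 1.09. The tally of rises was 1 without control 1 or control 2, 2 without double cKO 3 and 7 without control 3, and 3 without the others. The 4 were Ctss, Sprr2b, Slc26a4 and Aqp5, described above, of which Ctss is also a gene of macrophages and Sprr2b one of squamous cells. The very bright secreted members Lcn2 and Ltf did not pass. Lcn2, the siderophore-binding protein lipocalin 2, read 9.71, 9.37 and 14.29 in control and 14.84, 14.11 and 14.97 in double cKO (adjusted p = 0.145), and Ltf, lactoferrin, read 12.83, 11.93 and 13.45 in control and 14.66, 14.63 and 14.75 in double cKO (adjusted p = 0.260). Control 3 lay within the double cKO range in Lcn2 and was the highest control array in Ltf, and neutrophils make both proteins too. Of 16 tested genes of progesterone response none was called by limma, 1 had an unadjusted p below 0.05, and the median was -0.56. The receptor genes, named outside the rule, read lower without passing, with Pgr at 9.39, 9.07 and 8.99 in control and 7.44, 8.33 and 8.07 in double cKO (adjusted p = 0.0594) and Esr1 at 10.01, 9.76 and 10.09 in control and 9.42, 9.34 and 9.01 in double cKO (adjusted p = 0.109). Among 11 tested gland genes, 1 rose and 2 fell. Without control 3 it was 1 and 3, and without control 1, control 2, the library labelled double cKO 1 or double cKO 3 none was called in either direction. Wnt7b, a Wnt ligand of the luminal epithelium, read 6.26, 6.18 and 8.70 in control and 9.68, 9.97 and 10.07 in double cKO (adjusted p = 0.0217). Smim41 and Wfdc3 were lower, at -2.66 ± 0.59 and -2.48 ± 0.57 (adjusted p = 0.0378 and 0.0440). The calls of Wnt7b and Wfdc3 were lost without any 1 array other than control 3 (adjusted p between 0.0558 and 0.173). The call of Smim41 was lost without control 1, control 2, the library labelled double cKO 1 or double cKO 3 (adjusted p between 0.0931 and 0.151).

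A pair of cell cycle inhibitor genes rose, and no gene of cell division was called. Cdkn2a, which encodes the cell cycle inhibitors p16 and ARF, read 4.44, 4.45 and 4.30 in control and 8.78, 8.19 and 9.06 in double cKO and rose at least 14.0-fold (adjusted p = 2.40e-04), with its other probes at 1.98 and 3.25. Its neighbour Cdkn2b, which encodes p15, read 4.81, 5.33 and 7.12 in control and 9.60, 8.75 and 9.18 in double cKO and rose 10.7-fold (adjusted p = 0.0107). The call of Cdkn2b was lost without control 2 (adjusted p = 0.0601). They were the 2 rises among 23 tested cell cycle inhibitors and cyclins, of which 0 fell. Of 33 tested genes of DNA replication and mitosis none was called by limma and 0 had an unadjusted p below 0.05. The replicates disagreed on this list, as described with Cdh1. Its median was -0.06 with all arrays, 0.56 without the library labelled double cKO 1 and -0.45 without double cKO 2. The lack of calls thus does not show that the list was unchanged. Of 40 tested targets of p53, 0 rose and 1 fell, with a median of -0.02, near that of all genes. The fall was Steap3, a metalloreductase known as a p53 target, at 8.63, 8.81 and 8.29 in control and 7.41, 6.96 and 7.29 in double cKO (adjusted p = 0.0279), and both its other probes differed by -0.10. The call of Steap3 was lost without any 1 array other than control 3 (adjusted p between 0.0575 and 0.130). Without control 3, 1 target rose and 1 fell, and none was called without any other array. The cell cycle inhibitor gene Cdkn1a, the best known target, is named outside the rule. It read 6.97, 6.98 and 7.66 in control and 9.23, 8.37 and 8.43 in double cKO (adjusted p = 0.124), and the bright target Ier3 differed by 1.20 ± 0.70 (adjusted p = 0.414), so neither passed. Survival genes of the Bcl2a1 family rose, with Bcl2a1b at 7.77, 7.52 and 6.94 in control and 9.99, 10.26 and 10.06 in double cKO. The rises were 6.46-fold for Bcl2a1b, 7.13-fold for Bcl2a1d and at least 3.19-fold for Bcl2a1c, near-identical copies between which the probes may not tell.

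Genes of growth factor signalling and of cell stress completed the stable rises. Hbegf, a membrane-bound ligand of the EGF receptor, read 6.96, 7.09 and 7.67 in control and 9.14, 8.53 and 8.99 in double cKO and rose 3.13-fold (adjusted p = 0.00246). Dusp4, a phosphatase that ERK signalling induces and that switches it off, read 5.80, 5.49 and 6.70 in control and 8.81, 8.76 and 8.15 in double cKO and rose 5.97-fold (adjusted p = 0.00177). Its relative Dusp5 read 5.60, 6.15 and 5.99 in control and 8.05, 7.43 and 7.68 in double cKO and rose 3.50-fold (adjusted p = 0.00691). Hbegf, Dusp4 and Dusp5 were the rises among 19 tested genes of EGF receptor ligands and FGF signalling, and 1 of these fell. Without control 3, 5 rose and 2 fell, and without control 1, control 2, the library labelled double cKO 1 or double cKO 3 none fell. Fgf10, a growth factor that mesenchyme sends to epithelium, was the fall, at 8.30, 8.79 and 8.0 in control and 6.36, 6.55 and 5.76 in double cKO (adjusted p = 0.0264). Nupr1, a small chromatin protein of the stress response, read 9.75, 9.89 and 10.49 in control and 12.55, 12.45 and 12.58 in double cKO and rose 5.58-fold (adjusted p = 6.52e-04). It was bright in control and the 3 double cKO values lay within 0.2 of each other. Ankrd1, a target of YAP, read 4.36, 4.48 and 4.57 in control and 7.52, 7.78 and 7.93 in double cKO and rose at least 7.35-fold (adjusted p = 4.70e-04), with its other probe at 1.13. Among 23 tested immediate early genes, 2 rose, Egr2 at 6.51, 6.51 and 6.16 in control and 8.10, 7.68 and 8.0 in double cKO and Junb, an AP-1 subunit, at 8.50, 9.10 and 9.88 in control and 10.80, 10.64 and 11.15 in double cKO (adjusted p = 0.0201 and 0.0382). The number of rises was 0 without control 1, control 2, the library labelled double cKO 1 or double cKO 3 and 1 without double cKO 2, and 3 without the remaining one. A fit of the 6 arrays only called 1 rise in this list. The calls of Fgf10 and Egr2 were lost without control 1, control 2, the library labelled double cKO 1 or double cKO 3 (adjusted p between 0.0650 and 0.119). The call of Junb was lost without any 1 array other than control 3 (adjusted p between 0.0679 and 0.146).

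The falls kept with any 1 array left out came from no one list. Vit, which encodes the matrix protein vitrin, read 7.79, 7.61 and 6.95 in control and 4.60, 4.44 and 4.45 in double cKO and fell at least 6.06-fold (adjusted p = 4.70e-04). Trim11, a ubiquitin ligase gene on chromosome 11, read 6.93, 6.90 and 7.55 in control and 4.38, 4.38 and 4.38 in double cKO and fell at least 4.85-fold (adjusted p = 1.36e-04). In both, all 3 double cKO arrays were below detection. Arsj, an arylsulfatase, read 8.84, 9.40 and 8.10 in control and 5.99, 5.64 and 5.90 in double cKO and fell 7.65-fold (adjusted p = 9.23e-04). Slc38a5, a glutamine carrier, read 7.88, 7.97 and 7.43 in control and 4.93, 5.70 and 5.61 in double cKO and fell 5.08-fold (adjusted p = 0.00190). Aard read 10.61, 11.28 and 10.91 in control and 7.86, 8.18 and 8.02 in double cKO and fell 7.54-fold (adjusted p = 0.00279). The X-linked translation termination gene Gspt2 read 8.81, 9.0 and 9.03 in control and 7.23, 7.41 and 7.57 in double cKO and fell 2.92-fold (adjusted p = 0.00167). Plxna2, a semaphorin co-receptor, fell 2.32-fold, and Palmd, which encodes palmdelphin, fell 2.99-fold (adjusted p = 0.00455 and 0.00487). Mrpl55, a protein of the mitochondrial ribosome whose gene is also on chromosome 11, read 8.65, 8.67 and 8.85 in control and 7.64, 7.84 and 7.94 in double cKO and fell 1.89-fold (adjusted p = 0.00803). These 9 genes and 1 gene with a clone name were the 10 falls kept without any 1 array. Among the 100 tested genes nearest to Trp53 on chromosome 11 in the RefSeq order, 3 rose and 1 fell (4.0%), and among the 100 nearest to Cdh1 on chromosome 8, 2 rose and 2 fell (4.0%), against 3.18% of all genes. The fall near Trp53 was the gene with the clone name. Trim11 and Mrpl55 lay outside that count, at ranks 263 and 255 from Trp53. Close to them, called genes lay at rank 267 (lower) and rank 276 (higher). The gene with the clone name and Trim11 had the smallest limma adjusted p of all falls (1.27e-04 and 1.36e-04). Whether these falls go with the Trp53 locus was not tested. On the whole of chromosome 11, 33 of 988 tested genes were called (3.34%).

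Some stromal and matrix genes fell and 1 collagen rose. Of 34 tested genes of collagens and matrix assembly, 1 rose and 2 fell, with a median of -0.23. The number of falls was 1 without control 2 and 2 without any other array. Col8a1, a short-chain collagen of vessels and basement membranes, was the rise, at 5.14, 5.55 and 4.68 in control and 8.17, 9.28 and 9.10 in double cKO, at least 12.5-fold up (adjusted p = 3.15e-04). Col14a1, which binds collagen fibrils, read 9.56, 9.72 and 9.37 in control and 7.41, 8.45 and 8.04 in double cKO and fell 3.0-fold (adjusted p = 0.0105). Thbs3, a thrombospondin, read 9.56, 10.10 and 9.62 in control and 7.76, 8.67 and 8.48 in double cKO and fell 2.74-fold (adjusted p = 0.0161). Vtn, the adhesion protein vitronectin, read 7.24, 6.93 and 6.69 in control and 5.80, 5.68 and 5.50 in double cKO and fell 2.45-fold (adjusted p = 0.0101), and Ltbp4, which holds latent TGF-beta in the matrix, read 12.84, 12.64 and 12.47 in control and 11.78, 10.97 and 11.09 in double cKO and fell 2.59-fold (adjusted p = 0.0113). The transcription factor gene Ebf1 read 7.70, 7.86 and 7.05 in control and 6.24, 6.09 and 5.94 in double cKO (adjusted p = 0.0135), and Osr1, a factor of mesenchyme, read 8.21, 8.06 and 7.34 in control and 5.17, 6.33 and 6.59 in double cKO (adjusted p = 0.0274). The calls of Col14a1 and Thbs3 were lost without control 2 (adjusted p between 0.0598 and 0.0832). The call of Vtn was lost without control 1 or double cKO 3 (adjusted p between 0.0519 and 0.0536). The calls of Ltbp4 and Ebf1 were lost without control 1, control 2 or double cKO 3 (adjusted p between 0.0525 and 0.0720). The call of Osr1 was lost without control 1, control 2 or the library labelled double cKO 1 (adjusted p between 0.0615 and 0.118). Summed stromal markers were 33197 to 37443 in control and 28979.7 to 33104 in double cKO, and smooth muscle markers 47570.1 to 51465 in control and 53270.1 to 61616 in double cKO, and none of the 20 tested smooth muscle genes was called by limma, with 1 at an unadjusted p below 0.05.

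Vessel genes leaned downwards. Of 33 tested genes of endothelium and angiogenesis, 8 had differences above 0, 0 rose and 2 fell, with a median of -0.43. Without control 3, 5 fell, and without any other array none did. A fit of the 6 arrays only called no fall in this list, and 15 members had an unadjusted p below 0.05 in the reported fit. Cdh5, the cadherin of endothelial junctions, read 9.64, 9.63 and 8.84 in control and 8.09, 8.42 and 8.27 in double cKO (adjusted p = 0.0315), and Angptl7, a secreted protein of the angiopoietin-like family, read 11.50, 10.47 and 7.27 in control and 6.24, 5.09 and 4.65 in double cKO (adjusted p = 0.0419). Cd34, found on endothelium and on some stromal cells, read 9.52, 9.06 and 9.07 in control and 7.74, 8.09 and 7.49 in double cKO (adjusted p = 0.0369). Control 3 was the lowest control array in Cdh5 and Angptl7 and had the lowest sum of endothelial markers of the controls. The markers summed to 2529, 2828 and 1494 on the control arrays and 1136, 1272 and 1167 on the double cKO arrays. The calls of Cdh5, Angptl7 and Cd34 were lost without any 1 array other than control 3 (adjusted p between 0.0525 and 0.169).

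A few fallen genes are known from synaptic vesicles and nerves. They were picked after their values were seen, with no list or test behind the grouping, and each lost its call without at least 1 of the 6 arrays. Syp, synaptophysin, read 6.56, 6.85 and 6.34 in control and 5.49, 5.77 and 5.57 in double cKO, Syn2, a synapsin, read 8.17, 7.89 and 6.22 in control and 5.47, 4.73 and 4.61 in double cKO, and Rims1, a scaffold of the release site, read 5.91, 6.0 and 5.98 in control and 4.97, 4.86 and 4.77 in double cKO (adjusted p = 0.0160, 0.0255 and 0.0160). Cplx2, complexin 2, and Syt4, synaptotagmin 4, differed by -1.73 ± 0.33 and -1.96 ± 0.41, and Nos1, the nitric oxide synthase of nerves, fell at least 2.73-fold (adjusted p = 0.0203, 0.0305 and 0.0194). The call of Syp was lost without control 1, control 2, the library labelled double cKO 1 or double cKO 3 (adjusted p between 0.0549 and 0.0805). The call of Syn2 was lost without control 1, control 2, double cKO 2 or double cKO 3 (adjusted p between 0.0719 and 0.117). The call of Rims1 was lost without control 1, control 2 or double cKO 3 (adjusted p between 0.0582 and 0.0741). The call of Cplx2 was lost without any 1 array other than control 3 (adjusted p between 0.0562 and 0.0933). The call of Syt4 was lost without any 1 of the 6 arrays (adjusted p between 0.0526 and 0.118). The call of Nos1 was lost without control 2, the library labelled double cKO 1 or double cKO 3 (adjusted p between 0.0555 and 0.0784). Of the 4 tested members of the nerve and glia list, 2 had differences above 0 and Syn2 was the 1 called.

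A pair of mitochondrial enzyme genes, picked after their values were seen, was lower, and so were 2 lipid genes. Ivd, an enzyme of leucine breakdown, read 10.14, 10.20 and 10.06 in control and 8.99, 9.15 and 9.47 in double cKO and fell 1.90-fold (adjusted p = 0.00956), and Pccb, a subunit of propionyl-CoA carboxylase, read 9.73, 9.88 and 10.14 in control and 9.02, 8.72 and 9.10 in double cKO and fell 1.96-fold (adjusted p = 0.0110). Both act on the breakdown of branched-chain amino acids. Of 22 tested genes of lipid synthesis and adipocytes, 0 rose and 2 fell, with a median of -0.05. The number of falls was 3 without control 3, 1 without double cKO 2 and 0 without any other array. Scd1, a fatty acid desaturase, read 9.35, 9.30 and 8.46 in control and 7.12, 7.87 and 7.02 in double cKO, and Thrsp, a regulator of lipid synthesis, read 10.18, 10.26 and 7.66 in control and 6.46, 5.30 and 4.49 in double cKO (adjusted p = 0.0178 and 0.0412). Beside them, the adipocyte marker Adipoq, not tested because it was detected on 2 arrays, read 7.49, 7.02 and 4.83 in control and 4.40, 4.53 and 4.75 in double cKO. Its control 3 value lay near the double cKO arrays, and its part in these falls was not tested. The markers Plin1, Cidec and Fabp4 were not detected on any of the 6 arrays, and the sum of the 4 adipocyte markers was 89.7 to 244 in control and 87.3 to 89.9 in double cKO. The calls of Ivd and Pccb were lost without control 2 (adjusted p between 0.0509 and 0.0549). The call of Scd1 was lost without control 1, control 2, the library labelled double cKO 1 or double cKO 3 (adjusted p between 0.0653 and 0.0893). The call of Thrsp was lost without any 1 array other than control 3 (adjusted p between 0.0580 and 0.171). Of 31 tested genes of oxidative phosphorylation and 17 of cholesterol metabolism none was called by limma, with 1 and 3 at an unadjusted p below 0.05.

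The remaining lists held 1 call or none. Tppp3, a tubulin-binding protein of cilia, was the fall among 9 tested genes of oviduct and ciliated cells, at 10.80, 10.96 and 10.05 in control and 8.26, 9.27 and 8.02 in double cKO (adjusted p = 0.0308). Tgfb1, the growth factor TGF-beta 1, was the rise among 24 tested genes of BMP, TGF-beta and activin signalling, at 7.79, 8.06 and 7.52 in control and 8.51, 8.60 and 8.74 in double cKO (adjusted p = 0.0301). Tbxas1, thromboxane synthase, was the rise among 17 genes of prostaglandin metabolism, at 6.38, 6.27 and 6.15 in control and 7.04, 7.09 and 7.40 in double cKO (adjusted p = 0.0263). The glucose carrier gene Slc2a6 was the rise among 27 genes of hypoxia and glycolysis, at 7.79, 7.51 and 7.63 in control and 9.74, 8.79 and 9.84 in double cKO (adjusted p = 0.0489). The call of Tppp3 was lost without control 1, control 2, the library labelled double cKO 1 or double cKO 3 (adjusted p between 0.100 and 0.133). The call of Tgfb1 was lost without any 1 array other than control 2 (adjusted p between 0.0562 and 0.125). The call of Tbxas1 was lost without any 1 array other than the library labelled double cKO 1 (adjusted p between 0.0503 and 0.115). The call of Slc2a6 was lost without any 1 array other than double cKO 2 (adjusted p between 0.0748 and 0.173). None was called by limma among 17 hedgehog and notch genes, 16 retinoid genes, 11 mesothelial genes or 18 ribosomal protein genes, with 6, 2, 3 and 5 at an unadjusted p below 0.05. The ribosomal protein list had 2 of 18 differences above 0 and a median of -0.22.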

How the data were processed

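Whole uteri were profiled on Illumina bead arrays, and 6 of the 12 arrays were compared. The deposited table holds log2 values that the authors had already normalized, and per the submitters' processing notes limma 3.10.2 was used. Those values matched limma's neqc (offset 16), run here on the deposited raw intensity and detection p-value columns, to within 0.0234 on the log2 scale. Detection p-values are those deposited per the file headers, and the bead count per probe was used as deposited.

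A probe entered where 3 or more of the 6 arrays detected it at 0.05 (21440 of 45281), and of these 18266 had 1 gene symbol in the platform annotation. Of all probes, 34885 had 1 symbol, 18 several and 10378 none. The brightest probe stood for its gene. Limma 3.58.1 (R 4.3.3) was fitted to all 12 arrays with a coefficient per group and empirical Bayes moderation, adjusting over 11487 genes, and was tested on simulated data. Same-numbered replicates did not deviate together (r between -0.0688 and 0.0890), so they were not paired. Marker sums add linear signals.

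Any called gene could be named. Values on every array were given for Cdh1, Il1b, S100a8, Mmp13 and Krt17, for the 12 rises and 12 falls with the smallest adjusted p and for up to 4 called members of a list, and up to 2 bright uncalled members of a list were named. Among those 12 falls, Plxna2 and Palmd were given as folds only, and the gene with a clone name was not named. Values on every array of other genes, and Pgr, Esr1 and Cdkn1a, were chosen after their values were seen. Members and lists were chosen with earlier results of these data known.

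Alternatives changed the background correction, filter, probe choice, samples fitted, variance trend, scaling and replicate block, and left out arrays. Trp53 was not analysed here.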

Additional observations from a re-analysis of the deposited data

How the results depend on the processing

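When a probe had to be detected on all 6 arrays, 200 genes were called, 133 higher and 67 lower, all among the reported calls, with 110 of the 365 not tested. There 2 of the reported calls reversed in sign. One of them was Igf2bp3, at -0.013, since its brightest probe was replaced by another. The uncalled Retnlg difference turned to 0.018 without double cKO 3, and was -1.48 without the library labelled double cKO 1 and control 3. With the replicate number as a block, 225 genes were called, 172 higher and 53 lower, of which 170 and 47 were reported calls, although the numbers do not pair the samples. The block with a fit of the 6 arrays only, added after the data were seen, gave 119 calls, 99 higher and 20 lower, of which 82 and 13 were reported. The cause of these shifts was not tested. Leaving out 1 array gave 122 to 550 calls, 109 to 330 higher and 13 to 220 lower. The fit of the 6 arrays without a block gave 344 calls but shared 234 with the reported 365, 181 higher and 53 lower. The remaining alternatives gave 285 to 411 calls. Genes near background are limited by their signal, so their folds are bounds.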
